A study of Zea mays with 6 samples.

Results

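Transcript levels of 4 maize brassinosteroid genes, na1 (Zm00001d042843), na2 (Zm00001d014887), brd1 (Zm00001d033180) and bri1a (Zm00001d011721), were compared between GARR2KO and WT leaf sheaths. These 4 genes were taken by identifier from the 44146 listed in each library, and all 4 were found and tested. GARR2KO plants carry a knockout of the long noncoding RNA GARR2, and WT plants are wild-type maize. Both groups were seedlings with 3 leaves, grown without treatment, and RNA came from the sheath of leaf 2, with 3 biological replicate libraries per group. How GARR2 was disrupted, whether 1 line or several were used and whether each replicate came from separate plants are not stated in the labels. The p-values from limma thus rest on the spread between these libraries, which limma draws for each gene towards a trend over all genes. The deposited files hold identifiers only, and the names of the 4 genes were paired with them through the list that defined the set.

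Brassinosteroids are steroid hormones that promote cell elongation, and maize plants with defects in their synthesis or perception are dwarfed, with short internodes and leaves. The hormone is built from plant sterols in the cell, leaves it, and is bound at the cell surface by a receptor kinase, which passes the signal to transcription factors in the nucleus. High brassinosteroid levels are known to lower transcription of several synthesis genes. The gene na2 encodes a sterol reductase of the DWF1 type, which supplies campesterol, the sterol from which the hormone is made. The gene na1 encodes a steroid reductase of the DET2 type, which acts at an early step specific to the hormone. The gene brd1 encodes a brassinosteroid oxidase of the late steps that lead to the active hormone. The gene bri1a encodes a leucine-rich repeat receptor kinase of the BRI1 type, which binds the hormone.

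In GARR2KO sheaths na2 fell to 0.532 times the WT level, bri1a fell to 0.724 times, brd1 rose to 1.77 times and na1 rose to 1.12 times that level. At an adjusted p under 0.05, 2 of 4 rose and 2 of 4 fell. Both falls were called without any 1 library, while neither rise was called without GARR2KO replicate 2, WT replicate 1 or WT replicate 2, which left 2 of 4 called. Across the whole comparison 44.2% of 21531 tested genes passed the same threshold, 20.1% higher and 24.1% lower in GARR2KO, so a call for any single gene is common in this comparison. The balance of directions moved with the scaling of the libraries. On the deposited values 4322 genes rose and 5195 fell. Quantile normalization gave 4938 and 4865, and scaling by summed gene reads gave 5348 and 4496. Falls stayed more numerous with median-of-ratios scaling, at 4520 and 5031, and with voom with TMM scaling on recovered reads, at 5027 and 5324. The median log2 fold change was -0.13 over the 4 genes and -0.01 over all tested genes, and the median size of the change without its sign was 0.49 against 0.20. The -0.13 lies between 2 falls and 2 rises and describes no single gene. The genes were chosen with earlier results of these data known, so these medians are description only. These libraries come from whole sheath tissue, in which fewer cells of a type and less RNA per cell cannot be told apart.

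Sums of FPKM, fragments per kilobase of gene scaled to the size of the library, ran from 618107 to 625428 in GARR2KO libraries and from 633512 to 675513 in WT libraries. The FPKM of a gene went up in whole steps of 1 read, so the reads behind each value could be computed. Recovered gene reads ran from 17723598 to 19182369 per GARR2KO library and from 17750600 to 20722161 per WT library. Reads over listed genes were 94.8% to 96.2% of the total used for scaling in GARR2KO and 97.0% to 101% in WT; a scaling by summed gene reads left all 4 calls in place. Tissue marker genes and the targeted transcript could not be tied to identifiers, so neither the sheath identity nor the loss of GARR2 was checked here.

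**Figure D1:**
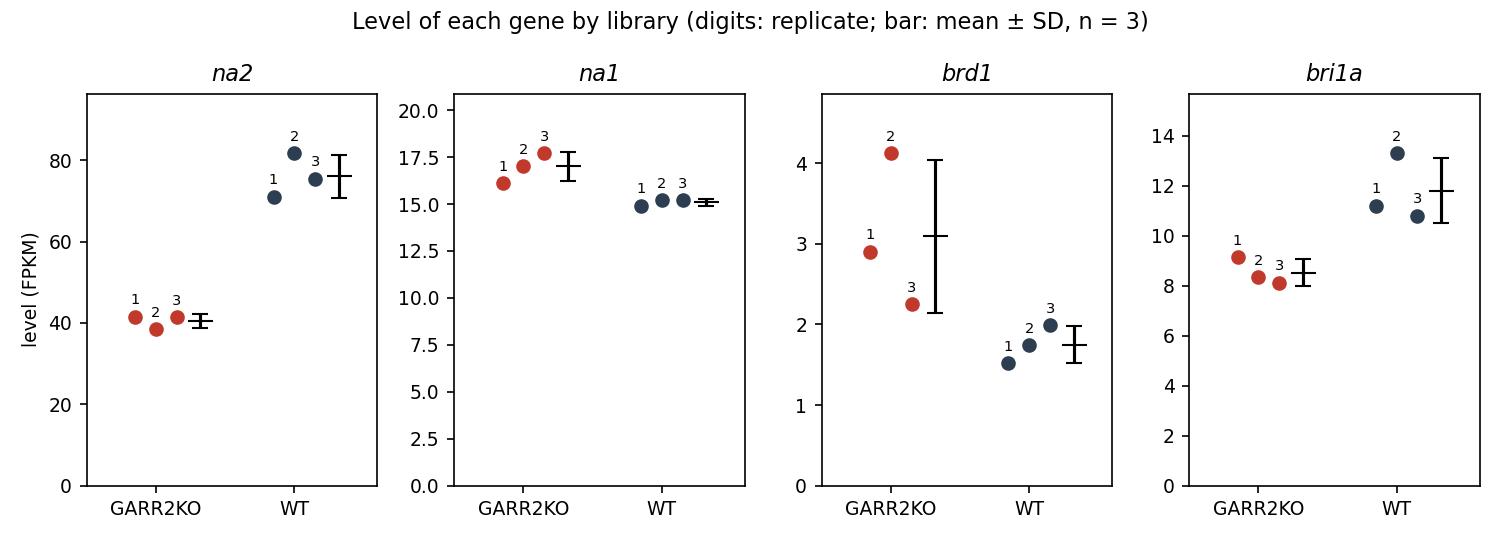
Level in FPKM (vertical axis, from 0, scaled per gene) of na2, na1, brd1 and bri1a in each GARR2KO and WT library. Dots are libraries with their replicate number, and the bar is the mean with its SD (n = 3). For each gene the 3 GARR2KO values lie wholly above or wholly below the 3 WT values, and brd1 has the widest spread relative to its mean, from 2.25 to 4.12 FPKM in GARR2KO.

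The sterol reductase gene na2 was the most abundant of the 4 and changed most. It stood at 41.5, 38.5 and 41.4 FPKM in GARR2KO replicates 1 to 3, against 71.0, 81.7 and 75.5 FPKM in WT replicates 1 to 3. All GARR2KO libraries were low and all WT libraries high, with no overlap, and the gap between the groups was several times the spread within either. Means were 40.5 ± 1.7 FPKM in GARR2KO and 76.1 ± 5.3 FPKM in WT (SD, n = 3 each), a 1.88-fold lower level in GARR2KO. On the log2(FPKM + 1) scale na2 fell by 0.89 (SE 0.062, 95% interval -1.03 to -0.75, adjusted p = 1.5e-05, limma). Reads for na2 numbered 8066 in GARR2KO and 14964 in WT, which gave a level ratio with an exact 95% counting interval of 0.519 to 0.548. That interval leaves out the spread between libraries, and leaving out 1 library moved the ratio of means between 0.515 and 0.552. Its level was above 89.6% to 90.4% of the genes detected in the GARR2KO libraries and above 94.4% to 95.5% of those in the WT libraries. Of all tested genes, 579 (2.69%) had a log2 fold change as low or lower.

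The receptor gene bri1a also fell. It stood at 9.14, 8.34 and 8.12 FPKM in GARR2KO replicates 1 to 3, against 11.2, 13.3 and 10.8 FPKM in WT replicates 1 to 3. No GARR2KO value reached the lowest WT value, and WT replicate 2 was the highest of the 6. Means were 8.53 ± 0.54 FPKM in GARR2KO and 11.8 ± 1.3 FPKM in WT (SD, n = 3 each), 1.38-fold lower in GARR2KO. Its log2 fold change was -0.42 (SE 0.085, 95% interval -0.62 to -0.23, adjusted p = 0.0044, limma). WT replicate 2 was the highest WT library for both genes that fell; without it the log2 fold change was -0.34 for bri1a (adjusted p = 0.00853, limma) and -0.84 for na2 (adjusted p = 4.65e-05, limma). Reads for bri1a numbered 1668 in GARR2KO and 2279 in WT, with a counting interval of the level ratio of 0.68 to 0.772.

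The late oxidase gene brd1 was the least abundant and rose. It stood at 2.90, 4.12 and 2.25 FPKM in GARR2KO replicates 1 to 3, against 1.52, 1.74 and 1.99 FPKM in WT replicates 1 to 3. The groups did not overlap, but GARR2KO replicate 3 was close to WT replicate 3, and GARR2KO replicate 2 stood well above the rest. Means were 3.09 ± 0.95 FPKM in GARR2KO and 1.75 ± 0.23 FPKM in WT (SD, n = 3 each). The log2 fold change on the log2(FPKM + 1) scale was 0.55 (SE 0.162, 95% interval 0.18 to 0.92, adjusted p = 0.0242, limma). That scale compresses low genes, and with a pseudocount of 0.1 the same value was 0.75 (adjusted p = 0.0228, limma). The call rests on few libraries. It was lost without GARR2KO replicate 2 (log2 fold change 0.38, adjusted p = 0.0579, limma), where the GARR2KO mean was 2.57 FPKM and the ratio to the WT mean 1.47. It was also lost without WT replicate 1 (0.49, adjusted p = 0.0741, limma) and without WT replicate 2 (0.55, adjusted p = 0.0555, limma).

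The spread of brd1 was set beside its counting error. Its GARR2KO reads numbered 107, 139 and 79 and its WT reads 58, 60 and 64. The chi-square of the reads about an equal level, per degree of freedom, was 10.1 in GARR2KO and 1.07 in WT, where counting error alone gives about 1. The same value was 4.67 in GARR2KO and 25.5 in WT for na2, and 2.24 in GARR2KO and 9.65 in WT for bri1a. Separate biological libraries usually vary by more than counting error. Counting intervals of the level ratio, 1.47 to 2.13 for brd1, leave out any spread between libraries beyond counting error. For brd1 in WT the value showed little such spread.

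The early reductase gene na1 moved least. It stood at 16.1, 17.0 and 17.7 FPKM in GARR2KO replicates 1 to 3, against 14.9, 15.2 and 15.2 FPKM in WT replicates 1 to 3. The groups did not overlap, and the WT values lay very close together. Means were 17.0 ± 0.78 FPKM in GARR2KO and 15.1 ± 0.18 FPKM in WT (SD, n = 3 each), 12.3% higher in GARR2KO. The log2 fold change was 0.16 (SE 0.053, 95% interval 0.03 to 0.28, adjusted p = 0.0423, limma). This call stood at the edge of the threshold: voom on the recovered reads gave 0.18 with an adjusted p of 0.0668, while calling the other 3 members and 48.1% of all tested genes. The call was kept without GARR2KO replicate 1 (adjusted p = 0.0372, limma) and lost without each of the other 5 libraries: GARR2KO replicate 2 (0.15, adjusted p = 0.104), GARR2KO replicate 3 (0.13, adjusted p = 0.138), WT replicate 1 (0.15, adjusted p = 0.109), WT replicate 2 (0.16, adjusted p = 0.0686) and WT replicate 3 (0.16, adjusted p = 0.0828). Reads for na1 numbered 1319 in GARR2KO and 1163 in WT, with a counting interval of the level ratio of 1.04 to 1.22. The 3 WT libraries differed by less than counting error usually gives, with a chi-square per degree of freedom of 0.0553. In GARR2KO the same value was 0.943.

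**Figure D2:**
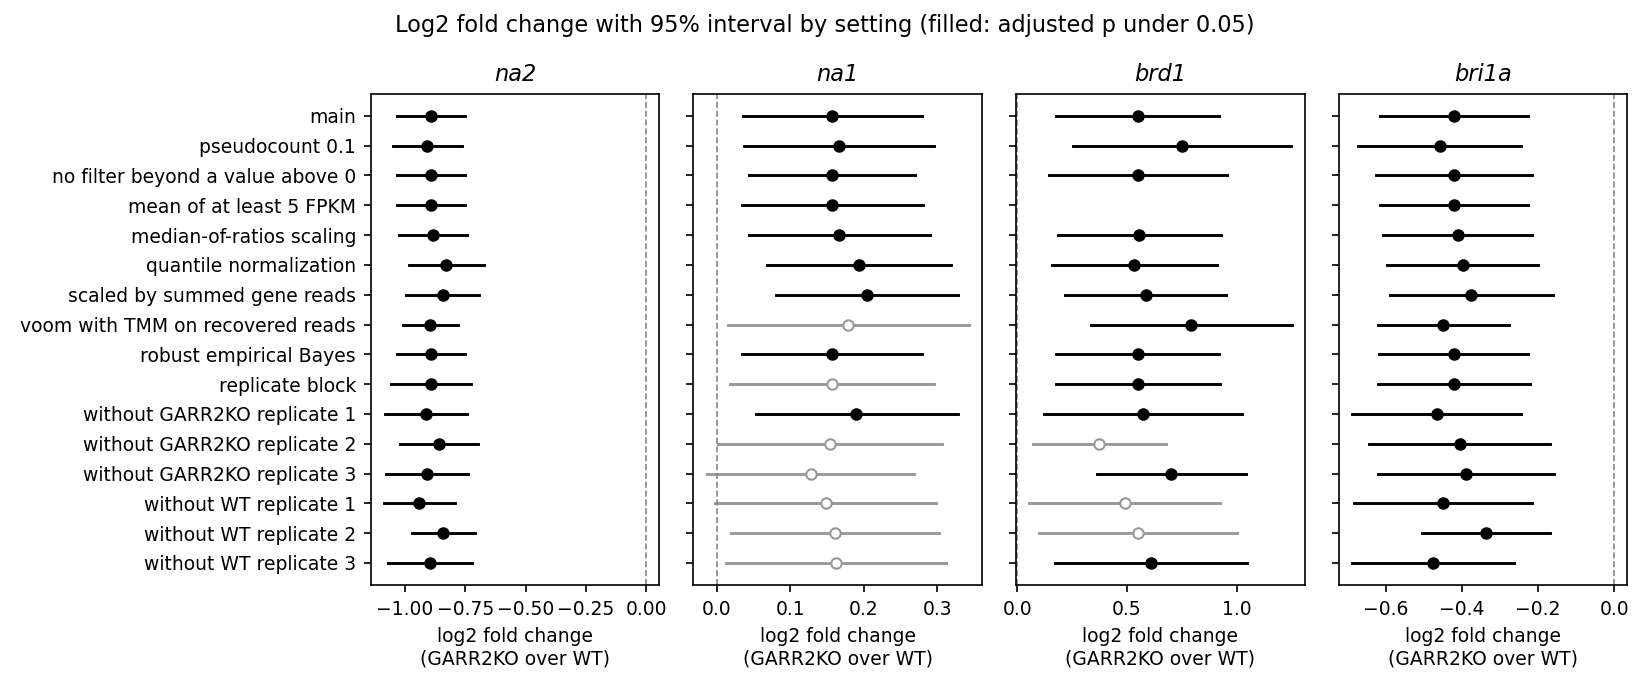
Log2 fold change of GARR2KO over WT (horizontal axis, own range per gene) with its 95% interval, for the fit as reported (main) and each other setting (rows). Filled black dots have an adjusted p under 0.05 and open grey dots do not. The dots of na2 and bri1a are filled in every row shown, those of brd1 are open in 3 rows and those of na1 in 7, and no estimate changes sign; the intervals of na1 without GARR2KO replicate 3 and without WT replicate 1 include 0.

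The members' values separated in all 4 genes, which 56.2% of tested genes also did, so this is read against that background. Neither direction of non-overlap was rare over the table: 26.8% of tested genes lay wholly higher and 29.4% wholly lower in GARR2KO. By size, among the 3156 tested genes with a mean level within 2-fold of na2, 57.8% were called and 2.82% had a log2 fold change at least as low. The share at least as low was 12.2% of the 8674 genes around bri1a, of which 45.0% were called. For the genes that rose, 7.84% of 6286 genes around brd1 and 25.1% of 7765 genes around na1 had a log2 fold change at least as high. Called were 34.5% of the genes around brd1 and 47.8% of those around na1. The spread within groups also differed among members. The pooled SD on the log2(FPKM + 1) scale was 0.248 for brd1, above that of 87.4% of genes of like level, and 0.0457 for na1, above that of only 14.1%. It was 0.0823 for na2 and 0.119 for bri1a, above that of 62.2% and 71.3% of genes of like level. Genes of like level had a median of 0.131 around brd1 and 0.0826 around na1. The limma fit draws the spread of each gene towards the trend over all genes. Its SE was therefore smaller for brd1, na2 and bri1a, and larger for na1, than the gene's own spread gives.

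**Figure D3:**
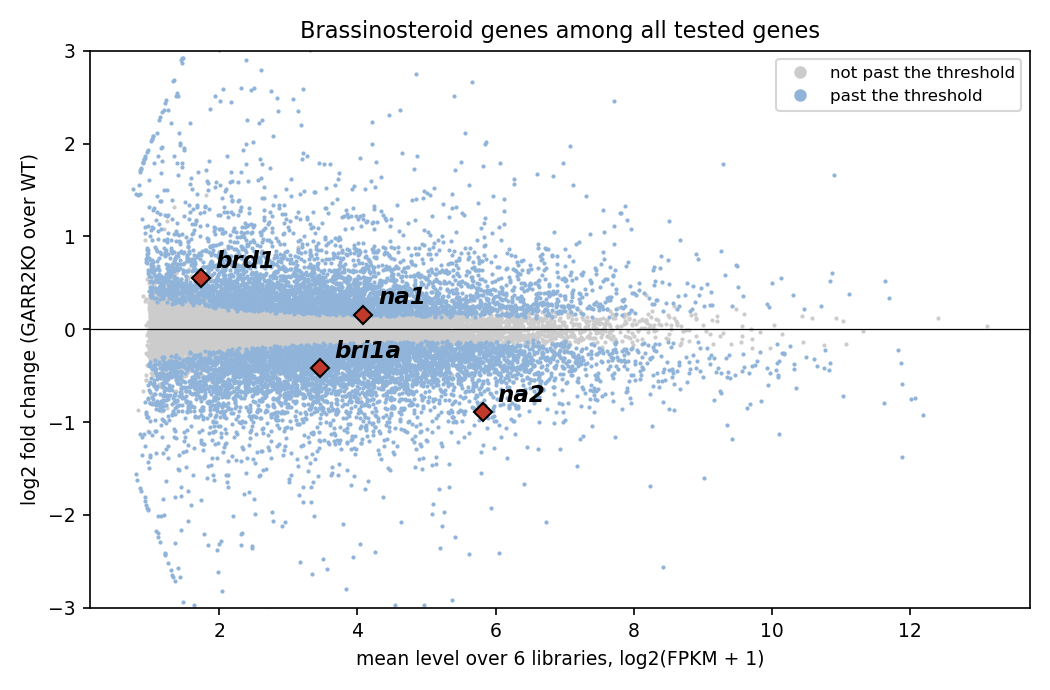
Log2 fold change of GARR2KO over WT (vertical axis) against mean level in log2(FPKM + 1) (horizontal axis) for the tested genes, in blue where the adjusted p was under 0.05 and in grey otherwise; 71 genes lie outside the axis limits of -3 and 3. Red diamonds are the 4 brassinosteroid genes: na2 lies lowest at -0.89, brd1 highest at 0.55, and na1 lies next to the grey band at 0.16.

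The order of the levels was the same in both genotypes: na2, then na1, then bri1a, then brd1. Within each genotype no 2 neighbours in this order overlapped between their libraries. In GARR2KO the steps down were 2.39-fold from na2 to na1, 1.99-fold from na1 to bri1a and 2.76-fold from bri1a to brd1. In WT the same steps were 5.04-fold, 1.28-fold and 6.74-fold. The means of the highest pair and of the lowest pair in this order were thus closer together in GARR2KO than in WT, and those of na1 and bri1a were further apart.

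Ratios between genes of 1 library do not depend on how that library was scaled, and they set the changes of the members against each other. The ratio of na1 to na2 was 0.389, 0.442 and 0.427 in GARR2KO replicates 1 to 3, against 0.210, 0.186 and 0.201 in WT replicates 1 to 3. Every GARR2KO library lay above every WT library, by a mean factor of 2.11, or 1.08 on the log2 scale (SE 0.08). The ratio of na2 to brd1 had the largest difference of the 6 pairs. It was 14.3, 9.35 and 18.4 in GARR2KO and 46.6, 46.9 and 38.0 in WT, a difference of -1.69 on the log2 scale (SE 0.30). The sterol reductase transcript was thus 14.0 ± 4.5 times as abundant per length as that of the late oxidase in GARR2KO and 43.9 ± 5.0 times in WT (SD, n = 3 each).

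The receptor gene was then set against each synthesis gene. The ratio of brd1 to bri1a was 0.363 ± 0.12 in GARR2KO and 0.150 ± 0.029 in WT, and that of na1 to bri1a was 2.00 ± 0.21 in GARR2KO and 1.29 ± 0.14 in WT (SD, n = 3 each). The ratio of na2 to bri1a was 4.75 ± 0.30 in GARR2KO and 6.48 ± 0.45 in WT (SD, n = 3 each). None of the 5 ratios given so far overlapped between genotypes. In all of them but na2 to bri1a, 1 gene lay wholly higher in GARR2KO and the other wholly lower. For those pairs the separation of the ratio, and so its p, followed from the separation of the single genes. The exact permutation test, two-sided, gave p = 0.1 for each of the 5 ratios, and 0.12 after Benjamini-Hochberg adjustment over the 6 pairs. The unadjusted value is the lowest possible with 3 libraries against 3. The ratio of na1 to brd1 was 5.57, 4.13 and 7.86 in GARR2KO and 9.77, 8.72 and 7.66 in WT. This was the 1 pair whose groups overlapped (difference -0.62 on the log2 scale, SE 0.29, exact permutation p = 0.2, adjusted 0.2). With 3 libraries against 3 no pair could reach a p under 0.05, so the ratios are given as values and separations.

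**Figure D4:**
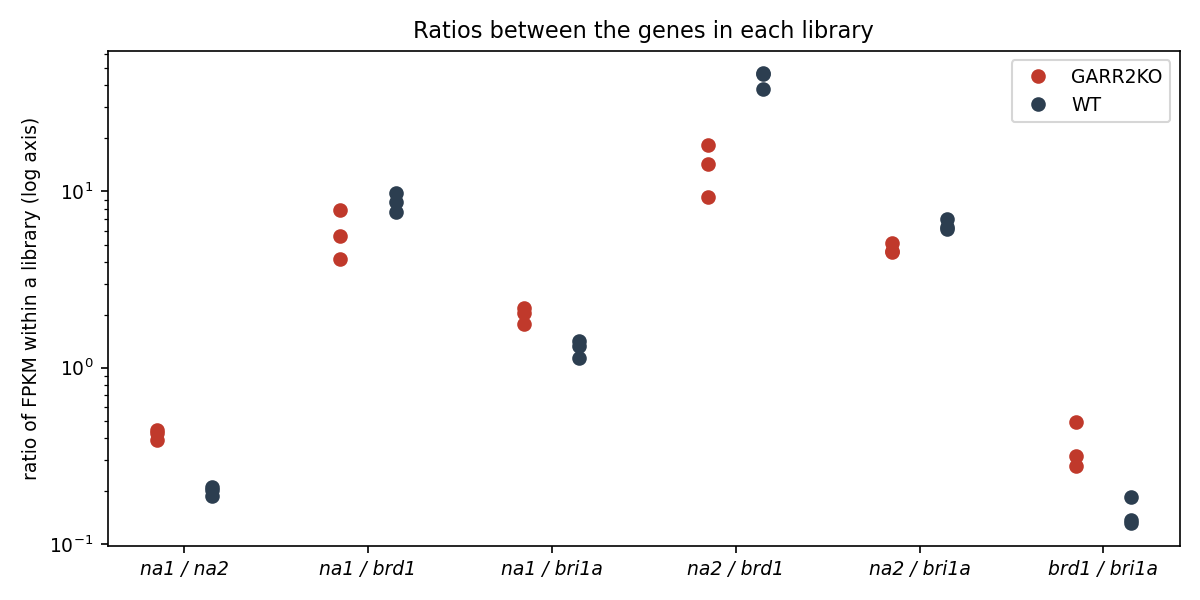
Ratio of the FPKM of 2 genes within a library (vertical log axis) for the 6 gene pairs, with GARR2KO libraries in red on the left and WT libraries in dark blue on the right of each pair. The colours separate in all pairs but na1 to brd1, where GARR2KO replicate 3 at 7.86 lies inside the WT values; the widest gap is in na2 to brd1.

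For each member the tested gene with the nearest pattern was sought over the 6 libraries, as the smallest root mean square difference of log2(FPKM + 1) after centring each gene on its mean. Nearest to na2 was Zm00001d014918, at 0.0183, with 29.3 ± 1.1 FPKM in GARR2KO and 55.5 ± 4.4 FPKM in WT (SD, n = 3 each). Nearest to bri1a was Zm00001d005672, at 0.0215, with 6.01 ± 0.48 FPKM in GARR2KO and 8.40 ± 0.92 FPKM in WT. Nearest to na1 was Zm00001d013839, at 0.00949, with 16.3 ± 0.79 FPKM in GARR2KO and 14.5 ± 0.30 FPKM in WT. Nearest to brd1 was Zm00001d020684, at 0.0946, with 3.49 ± 1.0 FPKM in GARR2KO and 2.16 ± 0.072 FPKM in WT. Within a distance of 0.1 lay 185 genes for na2, 799 for bri1a, 4606 for na1 and 1 for brd1. For na2, bri1a and na1 the nearest gene was thus 1 of many. The gene nearest na1 was itself not called (adjusted p = 0.0526, limma). The files do not pair these identifiers with names. The distances and counts rest on unscaled values and depend on how far each gene moved, so they are not compared between members.

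Genes with adjacent identifier numbers were described next, as the 10 tested genes before and the 10 after each member. Around na2, 2 of 20 rose and 8 fell, and 1 moved at least as far as na2. The gene nearest na2 in pattern, Zm00001d014918 (log2 fold change -0.89), has a number close to Zm00001d014887 but lay outside these 20. Around bri1a, 1 rose and 4 fell, and 1 moved at least as far as bri1a. Around brd1, 6 rose and 1 fell, with none of the 20 moving as far as brd1. Around na1, 3 rose and 5 fell, and 13 moved at least as far as na1, with log2 fold changes from -0.81 to 1.46. Not called were 10 neighbours around na2, 15 around bri1a, 13 around brd1 and 12 around na1. Of all tested genes 20.1% rose and 24.1% fell at the same threshold, and the neighbour counts were not tested against these shares. The medians of the neighbours were -0.02 around na2, -0.06 around bri1a, 0.10 around brd1 and -0.07 around na1. Whether the numbers follow the order of the genes on the chromosomes was not tested.

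**Figure D5:**
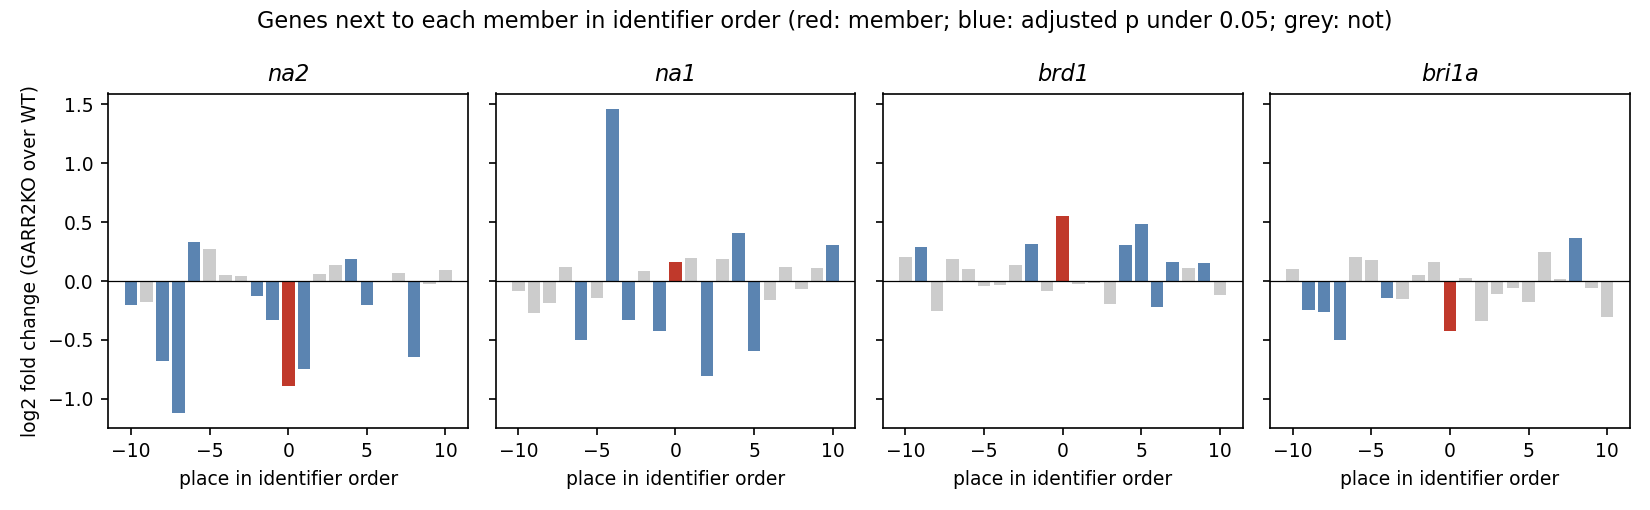
Log2 fold change of GARR2KO over WT (vertical axis) of each member, in red at 0, and of the 10 tested genes before and after it in identifier order (horizontal axis). Blue bars have an adjusted p under 0.05 and grey bars do not. The bar of brd1 is the longest of its panel, those of na2 and bri1a are exceeded by 1 neighbour each, and that of na1 by 13.

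Other genes of the pathway, 34 symbols for further synthesis and inactivation enzymes, receptors, co-receptors, kinases and transcription factors, were looked up by name. The RefSeq gene table of the assembly Zm-B73-REFERENCE-NAM-5.0 held 5 of these symbols and 1 of the 4 member names, na1, as a synonym. It held 0 of the 44146 identifiers of the files, so no further pathway gene is described.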

How the data were processed

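RNA-seq of leaf sheaths was deposited as 1 table per library for 3 GARR2KO and 3 WT libraries, with 150 bp paired-end reads per the labels. TopHat2, Cufflinks, Cuffdiff and the build B73 RefGen_v4 are named in the submitters' processing notes; their versions, the annotation release and filters were not given in any source used here. Values that the authors deposited were taken as FPKM from these tools, since the files have no header. Whole reads were recovered from FPKM steps for 31076 of 31076 genes above 0 (within 0.002 of a whole number, which genes above 0 in few libraries meet easily); whether reads or pairs were counted is not given. On simulated libraries the reads of 99.1% of genes detected in 3 or more were exact.

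Genotypes were compared with limma (version 3.58.1, in R 4.3.3) with a mean-variance trend, on log2(FPKM + 1) and without covariates, for the 21531 genes that averaged 1 FPKM or more. The test was two-sided with Benjamini-Hochberg adjustment over all of them, and calls had an adjusted p under 0.05. In simulated libraries with 200 changed genes among 21382, it recovered 20% of 1.25-fold, 56% of 1.5-fold and 84% of 2-fold changes. Far more genes were called in the real libraries, 44.2% of those tested, which loosens the p-value cutoff after adjustment. The simulated rates thus apply only to a setting where few genes change. Ratios between genes used an exact permutation test over libraries (scipy 1.17.1). Intervals from reads are exact (Clopper-Pearson), at 95%, and cover counting error only. Alternatives were pseudocount, filters, 3 scalings, voom with TMM scaling on recovered reads, robust moderation, the replicate block and leaving out each library. All 4 members were named whatever their values; the nearest genes follow the rule stated with them. The members and lists were chosen with earlier results of these data known.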

Additional observations from a re-analysis of the deposited data

How the results depend on the processing

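The count of 9517 changed genes lay between 7318 and 10351 under 9 other settings and between 7943 and 8847 when a library was left out. Log2 fold changes kept their sign in all 4 genes under every setting run. For na2 they ran from -0.91 to -0.83 under 9 settings and from -0.94 to -0.84 without 1 library, and for bri1a from -0.46 to -0.38 and from -0.48 to -0.34, with every adjusted p under 0.05 (limma). For brd1 they ran from 0.53 to 0.79 under 8 settings, all called, and from 0.38 to 0.70 without 1 library, where 3 of 6 were called; with a minimum mean of 5 FPKM it was not tested. For na1 they ran from 0.16 to 0.20 under 9 settings, where 7 were called, and from 0.13 to 0.19 without 1 library, where 1 of 6 was called. The call of na1 was lost with voom on recovered reads (0.18, adjusted p = 0.0668), and the cause was not tested. Libraries sharing a replicate number did not deviate together (r = -0.051, -0.046 and 0.049 across genes), so they were not paired; a fit with the replicate block gave 8963 changed genes and 0.16 for na1 (adjusted p = 0.07, limma), and left the other 3 calls in place. Ratio differences kept their sign under a pseudocount of 0.1 and without each library, where na1 to brd1 ran from -0.85 to -0.39 and na2 to brd1 from -1.91 to -1.43 on the log2 scale. Of the 4 genes brd1 had the fewest reads, at 58 to 139 per library. Its spread in GARR2KO exceeded counting error, with a chi-square per degree of freedom of 10.1.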
